A study of Mus musculus with 95 samples.

Results

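Lungs of 3 C57BL/6 mice kept for 75 days beside a seeder mouse that carried a heavy Pneumocystis murina infection were compared with lungs of 3 C57BL/6 mice kept that way for 32 days. These 6 arrays, chosen by strain, day and exposure in the sample titles, are 6 of the 95 arrays of the series. The other groups used were 2 unexposed C57BL/6 mice of day 32, 27 unexposed C57BL/6 mice of days 7 to 41 (the 2 of day 32 among them), exposed C57BL/6 mice of day 34 from a separate experiment, exposed CD40L-KO mice of days 75 and 32 (3 each), which lack the T cell protein CD40 ligand, and unexposed CD40L-KO mice of days 14 (5) and 32 (3). Each array measured total RNA of a lung homogenate, and the labels give every one of these mice as female and 8 weeks old, without saying whether that age is at the start or at harvest. The sources used here give no experiment for the day 75 mice and no unexposed mice of day 75 were analysed here. Exposed CD40L-KO mice of day 39 (2) and exposed C57BL/6 mice of day 41 entered only the estimates of spread in the fits.

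Pneumocystis fungi live on the surface of type I alveolar epithelial cells. Mice with intact immunity clear them, and CD4+ T cells, which activate macrophages and help B cells to make antibody, are needed for this. During clearance the lung fills with T cells, monocytes and macrophages, interferon-gamma induces chemokines and antigen presentation genes, and airway epithelium makes more mucus and more of the receptor that carries IgA to the airway surface.

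Levels are log2(intensity + 8) for the brightest probe set of each gene, so the floor is 3 and the change of dim genes is understated. Differences are day 75 minus day 32 of exposed mice unless another pair is named, with the standard error (SE) and the p of limma's moderated test adjusted over 8252 genes by the Benjamini-Hochberg method; counts cover the 7972 autosomal genes. A gene was called where its adjusted p was under 0.05. P-values measure the spread between mice only. For days 75 and 32 that spread was pooled over 19 arrays in 7 groups, CD40L-KO mice among them, and not taken from the compared mice alone. With only the 3 C57BL/6 groups in the fit, 838 genes were called between days 75 and 32 of exposure, in place of 1432. Against unexposed mice of day 32 it was 14 in place of 115. The labels do not say how the mice were divided over cages.

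Several measures of the arrays moved with the day. Xist, the X-inactivation transcript of female cells, was at 3.71, 4.10 and 3.89 in the day 75 mice, against 7.98, 7.27 and 7.73 in the exposed day 32 mice. Eif2s3y, a Y-linked gene, was at 5.67, 5.91 and 6.36 in the day 75 mice and at 4.01, 4.06 and 3.74 in the exposed day 32 mice. The groups did not overlap in either gene, so the day 75 arrays go against their label of female mice, and sex, day of exposure, age at harvest and any difference in array handling cannot be told apart. Gapdh signal at the 3' end of its transcript divided by that at the 5' end, a measure of RNA integrity called the Gapdh ratio here, was 1.20, 1.10 and 1.11 at day 75 and 0.99, 1.03 and 0.93 at day 32. The groups did not overlap in this ratio, so a fit with it as a covariate cannot fully separate it from the day. A call lost in that fit therefore does not tell RNA integrity and day apart. Heart muscle genes also differed: their mean level over 20 genes was 6.52, 6.99 and 6.53 at day 75, 5.16, 6.44 and 5.57 in exposed mice of day 32, and 8.38 and 6.60 in the unexposed mice of day 32. Fat genes (11) followed with 5.07, 6.99 and 5.35 at day 75, 4.37, 5.44 and 4.84 in exposed day 32 mice, and 8.04 and 5.51 in unexposed day 32 mice. The first unexposed mouse therefore carried the most heart and fat transcripts of these 8 arrays, and the part of all these measures in the results below was not tested except where a value is given.

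The first comparison asked what differs in exposed lung between day 75 and day 32. At day 75 the genes of inflammation, antigen presentation, mucus and cell division were lower and antibody genes were higher, by the counts of each list given below, and 11 of 29 airway, 11 of 37 endothelial and 8 of 35 lipid genes were called higher. Of 7972 autosomal genes, 715 were called higher (8.97%) and 717 lower (8.99%), 18% in all, and the median difference over all of them was -0.03. Among the called genes, 118 were higher and 225 lower by more than 1 on the log2 scale. With the Gapdh ratio as a covariate 114 genes were called higher and 175 lower. In 2786 genes (34.9%) the values of the 3 day 75 mice and the 3 day 32 mice did not overlap, so lack of overlap in a gene is common here.

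Clca1 (Entrez gene 23844), a secreted protein of mucus-making goblet cells, showed the largest fall. Its level was 4.87, 9.03 and 5.16 in the day 75 mice, against 11.39, 11.71 and 11.62 in the exposed day 32 mice. All day 75 values lay below all day 32 values, but the second day 75 mouse was still above each of the 27 unexposed mice, whose levels ran from 4.82 to 8.53, while the other two lay inside that range. Clca1 fell by 5.22 (SE 0.94, adjusted p = 0.0016), with a range of -6.56 to -4.48 when 1 array was left out in turn. With the Gapdh ratio as a covariate the difference was -4.29 and the adjusted p was 0.068. Muc5ac, the main inducible airway mucin, was at 3.23, 3.26 and 3.29 at day 75 and at 4.95, 4.89 and 5.41 at day 32. It fell by 1.83 (SE 0.14, adjusted p = 1.97e-06), and all 3 day 75 values were close to the floor of 3. Pigr, the receptor that moves IgA across epithelium, was at 8.71, 9.36 and 8.52 at day 75 and at 10.65, 10.32 and 10.70 at day 32, a fall by 1.69 (SE 0.22, adjusted p = 0.000184). Of 12 measured genes on the goblet cell and mucus list, 6 were lower, 0 were higher and the median difference was -1.16. In unexposed CD40L-KO mice, the day 14 group also had Eif2s3y above Xist and the day 32 group did not. There day 14 minus day 32 was -1.91 in Clca1, -0.11 in Muc5ac and -1.08 in Pigr, with a list median of -0.38.

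Saa3 (Entrez gene 20210), a serum amyloid A protein made by macrophages and epithelium in the acute phase, was at 5.12, 6.39 and 6.87 in the day 75 mice, against 11.27, 9.94 and 11.49 in the exposed day 32 mice. The groups were far apart, and all 3 day 75 values lay within the range of the unexposed mice (4.11 to 7.03). Saa3 fell by 4.77 (SE 0.48, adjusted p = 3.77e-05). Lcn2, which withholds iron from microbes, fell by 2.22 (SE 0.30, adjusted p = 0.000267). These were not typical of their list: of 14 acute phase genes 3 were lower, with a median of -0.12. Among the genes that draw or arm neutrophils, the differences were -2.64 (SE 0.37) for Cxcl1 and -2.28 (SE 0.55; adjusted p = 0.136 with the Gapdh ratio as a covariate) for Cxcl5, and 5 of 18 genes were lower in all.

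**Figure D1:**
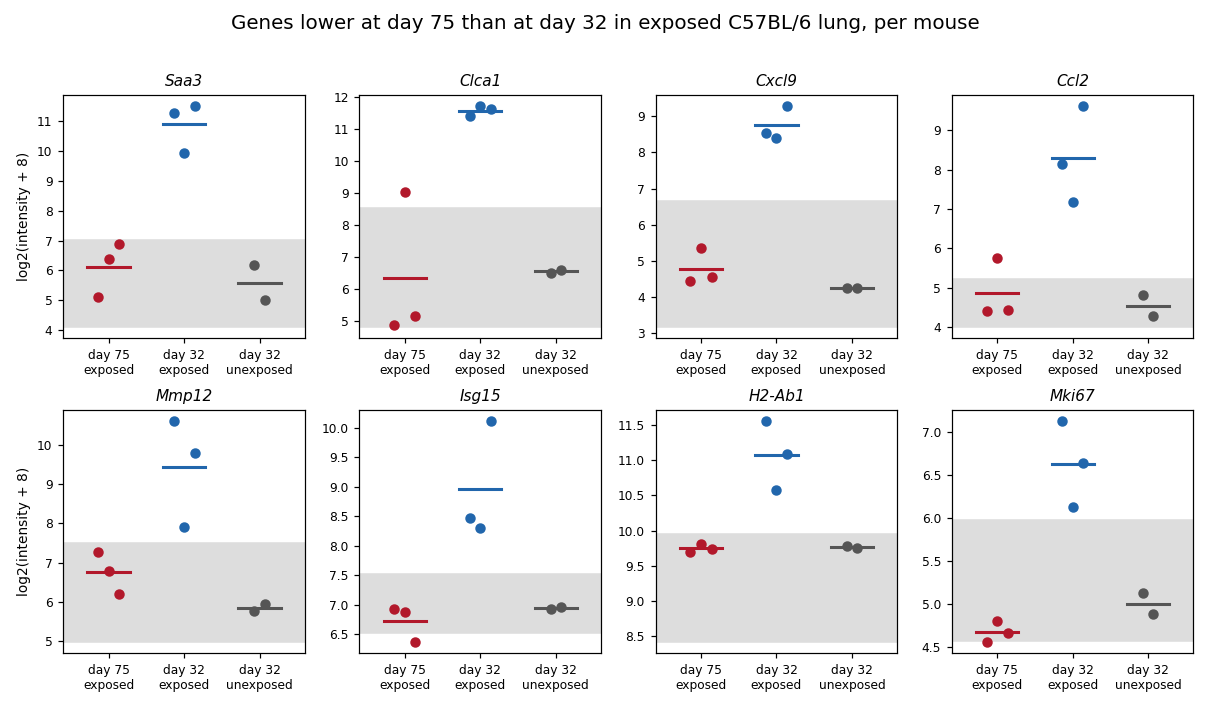
Levels of 8 genes on the log2(intensity + 8) scale (vertical axes, which differ between panels and do not start at 0) in exposed mice of day 75 (red, 3), exposed mice of day 32 (blue, 3) and unexposed mice of day 32 (grey, 2); points are mice, lines are group means and the grey band spans the 27 unexposed C57BL/6 mice. The day 75 mice lie below the exposed day 32 mice in all 8 panels and inside the grey band, apart from the second mouse in Clca1 (9.03), the second mouse in Ccl2 (5.75), the third mouse in Isg15 (6.37) and the first mouse in Mki67 (4.56).

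The interferon-gamma response fell as a group: 18 of 27 measured genes were lower, 0 were higher and the median was -1.12. Ifng itself was close to the floor, at 3.39, 3.82 and 3.79 at day 75 and 4.65, 3.63 and 4.93 at day 32. The groups overlapped in the second day 32 mouse and the difference of -0.73 was not called (SE 0.30, adjusted p = 0.109). Its targets were brighter. Cxcl9 (Entrez gene 17329), a chemokine that draws activated T cells through the receptor CXCR3, was at 4.45, 5.36 and 4.55 at day 75, against 8.55, 8.41 and 9.28 at day 32. It fell by 3.96 (SE 0.34, adjusted p = 8.67e-06), with differences of -4.25 to -3.69 when 1 array was left out. Cxcl10, which binds the same receptor, fell by 2.77 (SE 0.47, adjusted p = 0.00108; 0.0595 with the Gapdh ratio as a covariate). Socs1, a brake on cytokine signalling, fell by 2.27 (SE 0.30). The interferon-inducible GTPases that attack pathogen-containing vacuoles were lower too, with differences of -2.69 (SE 0.28) for Iigp1 and -2.20 (SE 0.25) for Gbp2.

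Genes induced by type I interferon were lower in 12 of 18 cases, with 0 higher and a median of -1.08. Isg15, a ubiquitin-like modifier, was at 6.93, 6.88 and 6.37 in the day 75 mice, against 8.47, 8.30 and 10.11 in the day 32 mice. The third day 75 mouse was below all 27 unexposed mice, and Isg15 fell by 2.23 (SE 0.34, adjusted p = 0.000605). Ifit1, which binds foreign RNA, fell by 1.79 (SE 0.29), and Irf7, a transcription factor of the response, fell by 1.78 (SE 0.28). In the fit with the Gapdh ratio 4 of the 18 were called lower, and 6 when the third day 75 mouse was left out.

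Many members of the 2 interferon lists moved together, so the promoter windows of a member of each list are shown here. RefSeq promoter windows (GRCm38.p6, 250 bases before to 50 bases after the gene start) were at hand for 6344 of the 7972 genes, and both strands were searched for the interferon-stimulated response element written as 2 copies of GAAA with any 2 bases between them. It was present in 210 windows (3.31%), in 8 of 22 windows of the interferon-gamma list (36.4%) and in 8 of 13 of the type I interferon list (61.5%). On the interferon-gamma list all 8 genes with the element were called lower, and 7 of the 14 without it. On the type I list these were 4 of 8 with it and 4 of 5 without it. The list of MHC class I presentation, given below, was searched too and held it in 2 of 12 windows (16.7%). There 1 of the 2 genes with it was called lower, and 9 of the 10 without it. Capitals mark the matches in the windows of Gbp2 (chr3:142620413-142620712, plus strand, match on the reverse strand starting at -59) and of Isg15 (chr4:156200769-156201068, minus strand, 3 overlapping matches starting at -78, -72 and -66).
Gbp2: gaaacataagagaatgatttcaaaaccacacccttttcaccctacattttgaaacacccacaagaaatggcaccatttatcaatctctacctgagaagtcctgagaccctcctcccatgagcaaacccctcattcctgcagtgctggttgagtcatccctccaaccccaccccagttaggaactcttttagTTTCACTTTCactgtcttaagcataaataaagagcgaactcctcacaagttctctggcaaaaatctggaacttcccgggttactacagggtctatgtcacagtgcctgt
Isg15: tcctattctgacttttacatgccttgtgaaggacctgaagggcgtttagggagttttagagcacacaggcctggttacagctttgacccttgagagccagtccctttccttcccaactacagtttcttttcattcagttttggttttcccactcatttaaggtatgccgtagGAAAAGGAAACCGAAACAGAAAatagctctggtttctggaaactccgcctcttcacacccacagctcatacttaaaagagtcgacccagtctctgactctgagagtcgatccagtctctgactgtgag
A match is a description of the letters and is not evidence of binding.

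Chemokines that draw monocytes were lower in 7 of 12 measured cases, with 0 higher and a median of -1.24. Ccl2 (Entrez gene 20296), the main ligand of the receptor CCR2 on inflammatory monocytes, was at 4.40, 5.75 and 4.42 at day 75, against 8.13, 7.18 and 9.61 at day 32. The second day 75 mouse was above all 27 unexposed mice (highest 5.23) and the other two were inside their range. Ccl2 fell by 3.45 (SE 0.48, adjusted p = 0.000339), with differences of -3.22 (SE 0.42) for Ccl7 and -2.57 (SE 0.32) for Ccl9. Ccl8 was at 5.68, 7.46 and 6.25 at day 75 and 9.47, 8.15 and 8.97 at day 32, and fell by 2.40 (SE 0.47, adjusted p = 0.0029; 0.136 with the Gapdh ratio as a covariate). In Ccl8 day 75 mice 2 and 3 remained above every unexposed mouse (highest 5.91), so among these chemokines it stood furthest above the unexposed range, as a description.

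Macrophage and phagocyte genes followed, with 19 of 34 lower, 1 higher (the cathepsin gene Ctsl) and a median of -0.79. Mmp12, the elastase of macrophages, was at 7.26, 6.78 and 6.20 at day 75, against 10.61, 7.91 and 9.80 at day 32, and it fell by 2.69 (SE 0.49, adjusted p = 0.00193). The second day 32 mouse was the lowest of its group here, with a level closer to the day 75 mice than to the other day 32 mice. Aif1, an actin-binding protein of macrophages, fell by 1.85 (SE 0.35), and the antibody receptor genes Fcgr2b and Fcgr1 differed by -1.48 (SE 0.33) and -1.34 (SE 0.28). These 3 calls were lost with the Gapdh ratio as a covariate, with adjusted p of 0.082, 0.211 and 0.159. The 3 chains of C1q, the first component of the classical complement pathway, fell together: the differences were -2.00 (SE 0.28) for C1qb, -1.83 (SE 0.24) for C1qc and -1.64 (SE 0.24) for C1qa, among 5 of 10 complement genes that were lower. Chil3, a chitinase-like protein of alternatively activated macrophages, was at 10.39, 10.70 and 10.16 at day 75 and 12.00, 11.77 and 11.73 at day 32, a fall by 1.42 (SE 0.21, adjusted p = 0.000468). Arg1, the arginase of the same macrophages, fell by 2.43 (SE 0.58, adjusted p = 0.00964), but its adjusted p was over 0.05 (up to 0.0535) when the first or the third exposed day 32 mouse was left out and was 0.286 with the Gapdh ratio as a covariate. Over the fits without 1 array the difference ran from -3.33 to -1.95.

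MHC class II genes, which present antigen to CD4+ T cells, were lower in 10 of 13 cases with a median of -1.07. H2-Ab1 was at 9.70, 9.81 and 9.74 in the day 75 mice, against 11.55, 10.58 and 11.08 in the day 32 mice, and fell by 1.32 (SE 0.23, adjusted p = 0.00117; 0.0525 with the Gapdh ratio as a covariate). H2-DMa, which loads peptide onto class II molecules, fell by 1.37 (SE 0.15). For class I presentation 11 of 14 genes were lower with a median of -0.83, led by the peptide transporter Tap1 at -1.90 (SE 0.21; a second, dimmer probe set differed by 0.06) and the immunoproteasome subunits Psmb9 at -1.59 (SE 0.19) and Psmb10 at -1.49 (SE 0.15).

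T cell genes were lower in 11 of 26 cases with a median of -0.73. Icos, a costimulatory receptor of activated T cells, was at 3.22, 3.66 and 3.27 at day 75, against 6.78, 4.66 and 5.24 at day 32, and fell by 2.17 (SE 0.36, adjusted p = 0.00106). Cd3g, a chain of the T cell receptor complex, was at 4.86, 5.15 and 4.79 at day 75 and 7.86, 5.61 and 6.95 at day 32, and it fell by 1.87 (SE 0.44, adjusted p = 0.00894; 0.174 with the Gapdh ratio as a covariate). Cd3e was not called, with -1.12 (SE 0.45, adjusted p = 0.102), and neither was Gzma, a granzyme of killer cells, with -0.39 (SE 0.23, adjusted p = 0.261). Of 21 cytotoxic and natural killer genes 5 were lower, with a median of -0.33. In whole lung, fewer cells of a type and less RNA per cell cannot be told apart.

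Cell cycle genes were lower in 31 of 51 cases, with 0 higher and a median of -1.03. Mki67, a marker of dividing cells, was at 4.56, 4.80 and 4.66 in the day 75 mice, against 7.12, 6.12 and 6.64 in the day 32 mice, and fell by 1.95 (SE 0.24, adjusted p = 0.000131). The difference was -1.91 (SE 0.23) for the mitotic kinase Cdk1, -2.06 (SE 0.25) for the B-type cyclin Ccnb2, -2.51 (SE 0.28) for the kinesin Kif20a and -2.04 (SE 0.32) for the survivin gene Birc5. In the unexposed CD40L-KO pair of days 14 and 32 these genes differed by -1.07 (Ccnb2) to -0.27 (Mki67), with a list median of -0.26. The cell cycle homology region, a short element of mitotic gene promoters searched here as TTTGAA on both strands, stood in 812 of the 6344 windows (12.8%) and in 16 of 39 windows of the list (41%). Of the 16 genes with it 13 were called lower, and 13 of the 23 without it. The windows of Cdk1 (chr10:69352863-69353162, minus strand, matches at -71 and -15) and Ccnb2 (chr9:70421505-70421804, minus strand, matches at -167 and 4) are shown with the element in capitals.
Cdk1: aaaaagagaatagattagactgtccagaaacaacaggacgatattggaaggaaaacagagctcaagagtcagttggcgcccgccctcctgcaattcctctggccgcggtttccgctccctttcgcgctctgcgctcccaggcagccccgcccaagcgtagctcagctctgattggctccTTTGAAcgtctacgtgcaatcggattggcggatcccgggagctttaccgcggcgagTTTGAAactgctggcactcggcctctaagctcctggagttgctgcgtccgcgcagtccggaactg
Ccnb2: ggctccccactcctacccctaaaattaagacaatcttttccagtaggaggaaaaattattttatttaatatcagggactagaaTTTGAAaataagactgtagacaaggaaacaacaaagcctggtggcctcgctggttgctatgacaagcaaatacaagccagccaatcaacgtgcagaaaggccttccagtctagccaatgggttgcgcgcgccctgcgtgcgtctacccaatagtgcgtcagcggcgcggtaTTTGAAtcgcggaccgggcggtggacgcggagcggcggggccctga

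Among these falling genes the second day 32 mouse was usually the mildest. In Cxcl9, Saa3, Ccl2, Mmp12, Icos, Mki67 and H2-Ab1 its level was the lowest of the 3 exposed day 32 mice, though not in Clca1, where it was the highest. Left out, that mouse gave 1581 called genes in place of 1432. Without the first exposed day 32 mouse the count was 856, and without the first or the third day 75 mouse it was 857 or 779.

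Antibody genes were higher at day 75. Igkv6-14 (Entrez gene 667881), a kappa light chain variable segment, was at 9.98, 9.59 and 9.86 in the day 75 mice, against 6.86, 5.16 and 5.94 in the exposed day 32 mice and 6.05 and 5.61 in the unexposed day 32 mice. Every day 75 mouse was above all 27 unexposed mice (highest 8.68), and Igkv6-14 rose by 3.82 (SE 0.36, adjusted p = 2.71e-05); a dimmer probe set of the same symbol differed by -0.44. Jchain (Entrez gene 16069), which links IgA and IgM into polymers, was at 9.70, 9.13 and 9.72 at day 75, against 7.00, 6.49 and 6.03 at day 32, and rose by 3.01 (SE 0.46, adjusted p = 0.000555). Igha (Entrez gene 238447), the constant region of IgA, was at 11.13, 10.99 and 11.25 at day 75, against 10.12, 9.32 and 9.03 at day 32 and 8.33 and 8.97 in the unexposed mice. All 3 mice of day 75 and all 3 exposed mice of day 32 were above all 27 unexposed mice (highest 9.00). Igha rose by 1.63 (SE 0.31, adjusted p = 0.00237). With the Gapdh ratio as a covariate its difference was also 1.63, with an adjusted p of 0.0519.

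Ighm, the constant region of IgM, was at 10.53, 9.24 and 10.52 in the day 75 mice, against 8.83, 8.76 and 8.69 in the exposed day 32 mice, with the second day 75 mouse well below the other two. It rose by 1.34 (SE 0.38, adjusted p = 0.0248), but stayed inside the range of the unexposed mice (8.46 to 11.01), and the adjusted p was over 0.05 (up to 0.109) when mouse 1 or mouse 3 of either day was left out and was 0.115 with the Gapdh ratio as a covariate. Further probe sets given this symbol differed by -0.06 to 3.07. Igkv1-133 split the day 75 group further: its level was 9.95, 6.78 and 8.92 at day 75 and 6.41, 6.87 and 6.12 at day 32. The second day 75 mouse was below the second day 32 mouse, and the rise by 2.09 (SE 0.52, adjusted p = 0.0125) lost its call, with an adjusted p of up to 0.06, without the third exposed day 32 mouse or without day 75 mouse 1 or 3, and its adjusted p was 0.178 with the Gapdh ratio as a covariate.

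Over the 26 measured constant and variable immunoglobulin genes, a list put together after their values were seen, 18 were higher, 0 were lower and the median was 1.32. Their mean level was 7.80, 7.27 and 7.77 in the day 75 mice, 6.61, 5.96 and 5.93 in the exposed day 32 mice and 5.94 and 5.82 in the unexposed day 32 mice. In 8 of the 26 genes all 3 day 75 mice were above all 27 unexposed mice, which held for 53 of all 7972 genes (0.665%). With the Gapdh ratio as a covariate 10 of the 26 were called higher, and without 1 array in turn 12 to 18. Variable segments are near copies of each other, so a probe set may also bind transcripts of related segments.

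The rise did not extend evenly to B cell and plasma cell genes. On the wider immunoglobulin and plasma cell list 7 of 20 genes were higher and 2 lower; among those called outside the antibody genes were Xbp1 and Ell2, which serve secretion and antibody processing in plasma cells, with 0.35 and 0.61, and the kinase Pim1 and the secretory pathway gene Creld2 with -1.24 and -0.57. On the B cell list 4 of 21 genes were higher and 2 lower. Ms4a1, which encodes CD20 of B cells, was at 7.80, 7.73 and 8.09 at day 75, against 6.62, 6.91 and 7.09 at day 32, and rose by 1.00 (SE 0.20, adjusted p = 0.00347), and Cd79b of the B cell receptor rose by 0.80 (SE 0.18). Both stayed inside the unexposed range. Cd72 fell by 1.41 (SE 0.26) and Ly86, also expressed by macrophages, fell by 1.69 (SE 0.30), with adjusted p of 0.0595 and 0.0696 with the Gapdh ratio as a covariate.

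**Figure D2:**
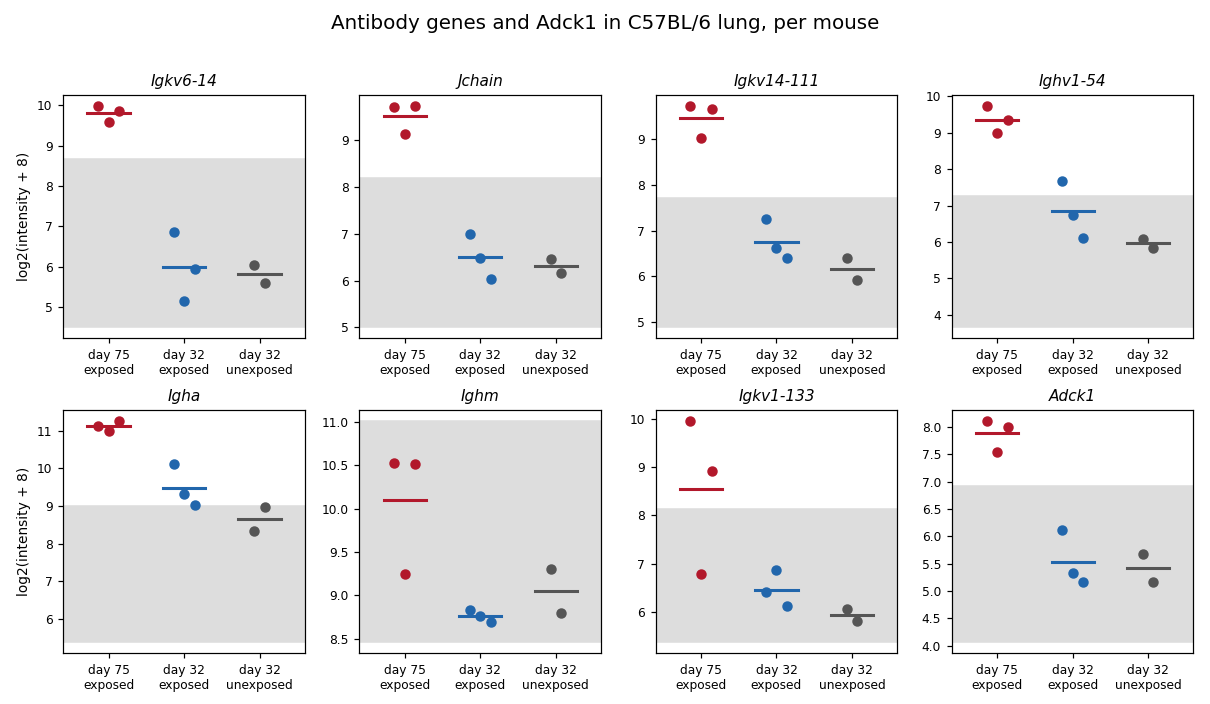
Levels of 7 antibody genes and Adck1 on the log2(intensity + 8) scale (vertical axes differ between panels and do not start at 0) in exposed mice of day 75 (red, 3), exposed mice of day 32 (blue, 3) and unexposed mice of day 32 (grey, 2), with group means as lines and the 27 unexposed C57BL/6 mice as a grey band. All 3 day 75 mice lie above the band for Igkv6-14, Jchain, Igkv14-111, Ighv1-54, Igha and Adck1, while Ighm stays inside it and the second mouse falls inside it for Igkv1-133 (6.78). The 3 exposed day 32 mice also lie above it for Igha, and the first of them for Ighv1-54 (7.67).

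Adck1 (Entrez gene 72113), named for a mitochondrial kinase, was at 8.10, 7.54 and 8.00 at day 75, against 6.11, 5.33 and 5.16 at day 32, and rose by 2.34 (SE 0.32, adjusted p = 0.000261). All 3 of its probe sets were higher at day 75, by 2.34, 1.88 and 2.75. Whether these probe sets bind only Adck1 transcripts, or also those of antibody genes, was not tested. Its day 75 mice were above all 27 unexposed mice, as were those of the antibody genes just named other than Ighm and Igkv1-133.

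Among genes of resident lung cells more were higher than lower at day 75 against day 32. Pon1 (Entrez gene 18979), a lipid-associated esterase, was at 8.54, 8.49 and 8.43 in the day 75 mice, against 4.65, 6.61 and 5.14 in the exposed day 32 mice and 8.17 and 8.34 in the unexposed ones. It rose by 3.02 (SE 0.34, adjusted p = 7.05e-05), and the day 32 mice fell below the unexposed range (7.17 to 8.60). Airway genes were higher in 11 of 29 cases and lower in 1, with a median of 0.39. Fmo1, a flavin monooxygenase, was at 10.28, 10.18 and 10.37 at day 75 and 8.61, 9.47 and 8.77 at day 32, a rise by 1.32 (SE 0.19, adjusted p = 0.00037); the carboxylesterase Ces1d rose by 1.32 (SE 0.14) and the glutathione transferase Gsta3 by 1.44 (SE 0.25; adjusted p = 0.0627 with the Gapdh ratio as a covariate). Cyp1a1, a cytochrome P450 induced by aromatic compounds, rose by 1.64 (SE 0.26). Scgb1a1, the secretoglobin that defines club cells, was not called, with -0.11 (SE 0.12, adjusted p = 0.593).

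Endothelial genes were higher in 11 of 37 cases and lower in 1 (Cd34, -0.89), with a median of 0.37. Tek, the receptor of angiopoietins, was at 8.55, 8.40 and 8.57 at day 75, against 6.79, 7.76 and 7.09 at day 32, and rose by 1.29 (SE 0.20, adjusted p = 0.000702). Hpgd, which degrades prostaglandins, rose by 1.01 (SE 0.15). Thbd, the thrombin receptor thrombomodulin, rose by 1.10 (SE 0.19), while a dimmer probe set of it differed by 0.07. The adjusted p of Thbd was 0.0642 with the Gapdh ratio as a covariate. With that covariate 3 airway and 2 endothelial genes were called higher. On the lipid list 8 of 35 genes were higher and 0 lower: Cd36, a fatty acid receptor, rose by 1.10 (SE 0.16; a dim probe set differed by -0.04), the fatty acid carrier Fabp1 by 1.50 (SE 0.16) and the cholesterol exporter Abca1 by 1.38 (SE 0.18; a dimmer probe set differed by -0.37). The alveolar list had 4 of 15 genes higher and 0 lower, and its main surfactant gene Sftpc was not called, with -0.29 (SE 0.11, adjusted p = 0.0772). In unexposed CD40L-KO mice, day 14 minus day 32, the rising genes named from Pon1 to Abca1 differed by 0.34 (Cyp1a1) to 1.34 (Fabp1). That pair has the same step in Xist and Eif2s3y without exposure. Its list medians were -0.09 for airway, 0.25 for endothelial, 0.12 for lipid and 0.23 for alveolar genes. The part of that step in the rises was not tested.

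Matrix genes were called in both directions: of 54 genes 7 were higher, 10 lower and 37 not called, with a median of 0.01. Igfbp3 rose by 1.72 (SE 0.29), the small proteoglycan gene Dcn by 1.27 (SE 0.31) and Igfbp6 by 1.27 (SE 0.25). A dimmer probe set of Igfbp3 differed by only 0.10 (6.30 against 6.20). The collagen gene Col1a1 was at 9.24, 9.36 and 9.45 at day 75, against 10.08, 10.08 and 9.83 at day 32, and fell by 0.65 (SE 0.12, adjusted p = 0.00192; 0.0576 with the Gapdh ratio as a covariate). Tgfbi, a matrix protein induced by TGF-beta, fell by 1.42 (SE 0.26). With the same covariate the adjusted p was also over 0.05 for Igfbp3 (0.0562), Igfbp6 (0.0906) and Tgfbi (0.0781).

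**Figure D3:**
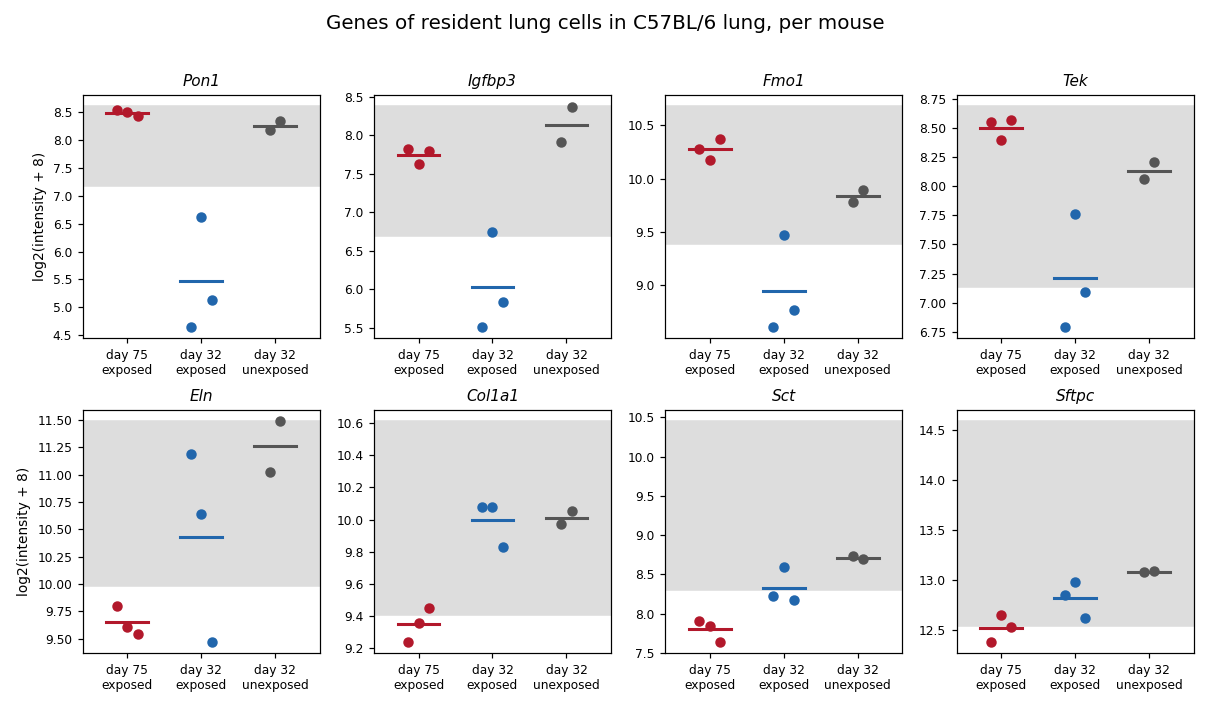
Levels of 8 genes of resident cells and matrix on the log2(intensity + 8) scale (vertical axes differ between panels and do not start at 0) in exposed mice of day 75 (red, 3), exposed mice of day 32 (blue, 3) and unexposed mice of day 32 (grey, 2), with group means as lines and the range of 27 unexposed C57BL/6 mice as a grey band. Pon1, Igfbp3, Fmo1 and Tek are higher at day 75 than in the exposed mice of day 32 and inside the band of unexposed mice, and all 3 day 75 mice lie below the band for Eln and Sct.

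The heat-shock pair Hspa1b and Hspa1a was higher at day 75 than at day 32. Hspa1b, an inducible HSP70, was at 8.74, 10.19 and 9.19 in the day 75 mice, against 6.98, 7.59 and 7.25 in the exposed day 32 mice, and all 3 day 75 mice were above all 27 unexposed mice (highest 8.22). It rose by 2.10 (SE 0.41, adjusted p = 0.00274; 0.0553 with the Gapdh ratio as a covariate). Its neighbour copy Hspa1a, nearly identical in sequence so that probes may not separate them, rose by 1.93 (SE 0.50, adjusted p = 0.0141), with an adjusted p of up to 0.0773 when the first exposed day 32 mouse or the second day 75 mouse was left out and 0.169 with the Gapdh ratio as a covariate. Hspa1a was at 8.64, 9.99 and 9.07 at day 75 and reached 8.62 in an unexposed mouse of day 32. Against the unexposed mice of day 32 neither was called, with 1.49 for Hspa1b (adjusted p = 0.13) and 0.96 for Hspa1a (adjusted p = 0.427). These and Junb belong to the list of immediate early and stress-hormone genes, of which 7 of 36 were higher and 4 lower. Junb, a subunit of the transcription factor AP-1, differed by -1.18 (SE 0.23; adjusted p = 0.0576 with the Gapdh ratio as a covariate). Of 16 clock genes 1 was higher (Clock, 0.90) and 1 lower (Bhlhe40, -0.99), both calls being lost with that covariate (adjusted p 0.0948 and 0.153). Over all genes 8.97% were higher and 8.99% lower, so these counts are near that share and are no result about the clock list. Among the other lists 0 of 38 respiratory chain genes and 0 of 13 mast cell genes were called, and of 16 erythroid and platelet genes 3 were higher and 2 lower.

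The second comparison asked what still differed at day 75 from unexposed lung, with the 2 unexposed mice of day 32 as the nearest group. It shares the day 75 arrays with the first comparison, so only its own values are given. Of 7972 genes 80 were called higher (1%) and 35 lower (0.439%), 1.44% in all; 1236 had an unadjusted p under 0.05. The genes higher by the most were antibody genes: 17 of the 80 were immunoglobulin genes or Jchain, and 16 of the 26 immunoglobulin genes were called, with a median of 1.67 against -0.04 over all genes. Those 26 are the list put together after their values were seen. On the wider immunoglobulin and plasma cell list 5 of 20 genes were called higher and 0 lower, with a median of 0.38. Igkv6-14 was higher by 3.98 (SE 0.41, adjusted p = 0.000126), Ighv1-54, a heavy chain variable segment, by 3.40 (SE 0.53, adjusted p = 0.00558), Igkv14-111 by 3.29 (SE 0.30, adjusted p = 3.93e-05), Jchain by 3.20 (SE 0.51, adjusted p = 0.00559) and Igha by 2.47 (SE 0.35, adjusted p = 0.00258). With 1 array left out in turn the adjusted p of Igkv6-14 and Igkv14-111 was at most 0.00539 and 0.00184, and that of Igha reached 0.0517 without the first unexposed mouse, and that of Jchain and Ighv1-54 reached 0.0553 and 0.0531 without the second.

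The count of called genes in this comparison was 7 with the Gapdh ratio as a covariate, in place of 115. It was 26 without the first day 75 mouse, 20 without the third, 25 without the first unexposed mouse and 36 without the second. Of the 26 immunoglobulin genes 10 to 16 were called when 1 array was left out and 6 with the Gapdh ratio. In unexposed CD40L-KO mice, whose day 14 group also had Eif2s3y above Xist and whose day 32 group did not, day 14 differed from day 32 by 1.73 in Igkv6-14, 1.28 in Ighv1-54, 1.08 in Igha, 0.40 in Igkv14-111 and 0.32 in Jchain. The median over the 26 immunoglobulin genes there was 0.32, without exposure; 2 of the 3 day 32 arrays and 1 of the 5 day 14 arrays of that pair carried squamous epithelium transcripts.

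The inflammatory groups had almost no called gene against unexposed mice, in a comparison that called 115 of all 7972 genes (1.44%). In lists of this size a count of 0 is near that share, so the counts are a description only. Counts were 0 of 27 for the interferon-gamma list (median 0.24), 0 of 12 for monocyte chemokines (0.04), 0 of 12 for goblet cell genes (-0.16), 0 of 34 for macrophage genes (-0.03), 0 of 13 for MHC class II (0.11), 0 of 26 for T cell genes (0.01), 0 of 18 for type I interferon genes (-0.16) and 0 of 51 for cell cycle genes (-0.22). In the MHC class I list B2m, the light chain of class I molecules, was higher by 0.70, and the median was 0.07. With 2 unexposed mice, a gene that misses the threshold is not shown to be back at the unexposed level. Single mice kept higher levels of some genes, as given for Clca1, Ccl2 and Ccl8, and 2 of 3 day 75 mice were above all 27 unexposed mice in Chia1, an acidic chitinase, at 7.96, 7.63 and 7.79 (unexposed highest 7.66).

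**Figure D4:**
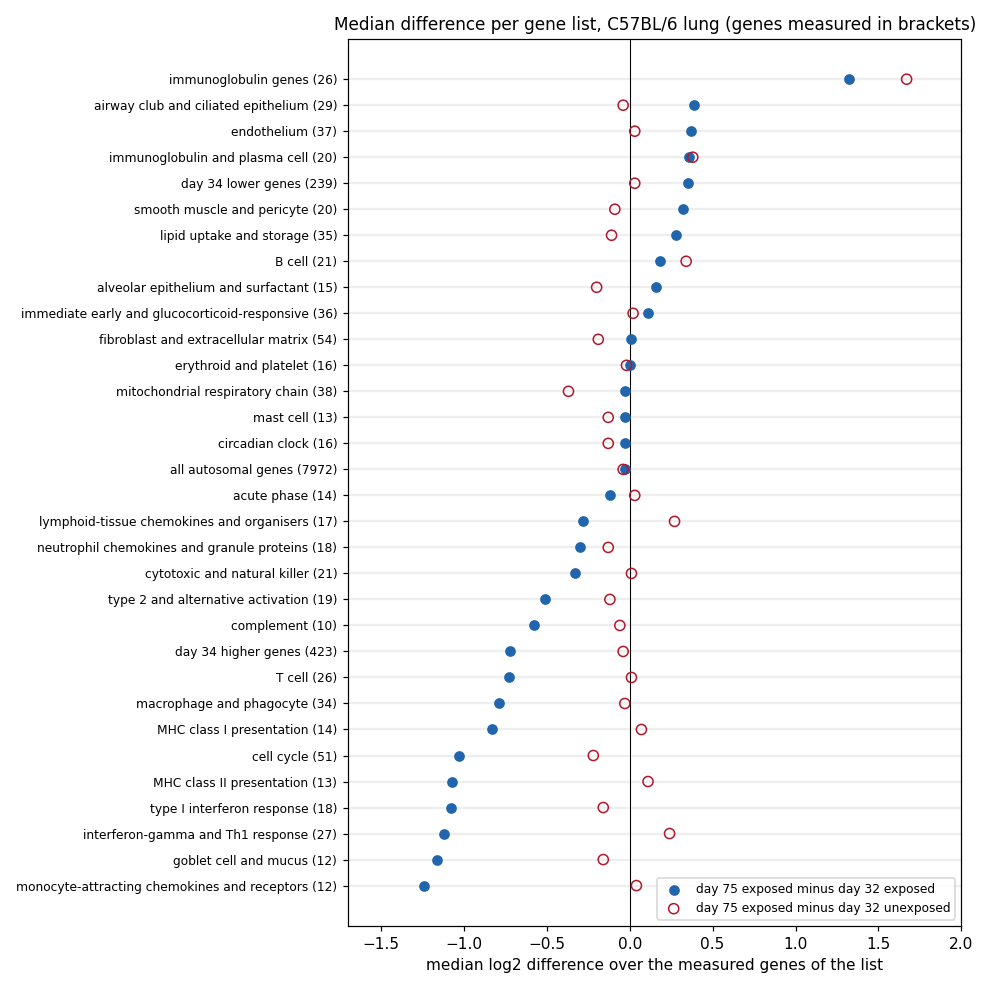
Median log2 difference over the measured autosomal genes of each list other than those of other tissues (horizontal axis; number of genes in brackets), for exposed day 75 minus exposed day 32 (filled blue) and exposed day 75 minus unexposed day 32 (open red); the 2 share the day 75 arrays. Filled points run from -1.24 for monocyte chemokines to 1.32 for the 26 immunoglobulin genes, a list put together after their values were seen. Open points lie between -0.37 for the respiratory chain and 0.38 for the immunoglobulin and plasma cell list, apart from those 26 genes at 1.67. The heart muscle and fat lists, not plotted, had medians of -0.90 and -1.01 against unexposed mice.

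Some matrix and epithelial genes were below the unexposed level. Eln, the elastin of alveolar walls and vessels, was at 9.80, 9.61 and 9.54 in the day 75 mice, against 11.03 and 11.49 in the unexposed day 32 mice, and at 11.19, 10.64 and 9.47 in the exposed day 32 mice. All 3 day 75 mice were below all 27 unexposed mice (lowest 9.98), as was the third exposed day 32 mouse; 48 of all genes (0.602%) had the 3 day 75 mice below that range. Eln was lower than in unexposed mice by -1.60 (SE 0.35, adjusted p = 0.0335). Col1a1 was lower by -0.66 (SE 0.13, adjusted p = 0.0242), with 2 of 3 day 75 mice below all 27, and Sftpc by -0.57 (SE 0.12, adjusted p = 0.0335). Sct, the hormone secretin, was at 7.91, 7.85 and 7.64 at day 75 and at 8.73 and 8.70 in the unexposed mice, a difference of -0.92 (SE 0.19, adjusted p = 0.0272). These 4 calls were lost with the Gapdh ratio as a covariate (adjusted p 0.135 to 0.319) and when single arrays were left out (adjusted p of up to 0.188), and unexposed CD40L-KO mice of day 14 also differed from those of day 32 by -0.94 in Eln, -0.88 in Col1a1 and -1.05 in Sct, and by 0.31 in Sftpc.

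Genes that changed with exposure in other mice were followed in the same way. In a separate experiment of the series, C57BL/6 mice exposed for 34 days differed from unexposed mice of that day in 423 genes called higher (5.31%) and 239 called lower (3%), on arrays other than those of days 32 and 75. Of the 423 genes, 244 were lower and 3 higher at day 75 than at day 32, with a median of -0.72. Against unexposed mice of day 32, 3 of them (B2m, Nudcd2 and Rbm14) were higher and 1 (Tuba1c) lower at day 75, with a median of -0.04. Over all genes 80 were higher there (1%) and 35 lower (0.439%), so these counts are near that share and are a description only. In the exposed mice of day 32, 181 of the 423 were higher and 1 lower than in unexposed mice, with a median of 0.68. Over all genes 343 were higher there (4.3%) and 205 lower (2.57%). Their mean level was 6.90, 6.97 and 6.90 in the day 75 mice, 7.90, 7.43 and 7.88 in the exposed day 32 mice, and 6.91 and 6.94 in the unexposed day 32 mice. The day 75 and unexposed values lay together and the exposed day 32 mice stood above both, the second mouse least. All 3 day 75 mice were above all 27 unexposed mice in 6 of the 423 genes, and all 3 exposed day 32 mice in 169, beside 53 (0.665%) and 257 (3.22%) of all genes.

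The 239 genes lower at day 34 showed the opposite sign, with 81 higher and 1 lower at day 75 than at day 32 and a median of 0.35. Against the unexposed mice of day 32 their median was 0.03 and 5 were higher, beside 80 of all 7972 genes (1%). Of the day 34 mice, 3 of 10 exposed and 4 of 5 unexposed mice carried squamous epithelium transcripts (mean of Krt4 and Krt13 above 7), as none of the C57BL/6 mice of days 32 and 75 did. Gapdh ratios reached 3.00 in exposed and 4.39 in unexposed mice of day 34. When day 41 controls were added to those of day 34 and arrays with squamous transcripts were dropped, a choice made after seeing the data, 188 of 270 genes were lower at day 75 than at day 32 with a median of -0.94, and the median against unexposed mice was 0.08.

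The last comparison asked whether CD40L-KO mice changed in the same way between days 32 and 75, by the difference of the changes, C57BL/6 minus CD40L-KO. Of 7972 genes 61 were called higher (0.765%) and 180 lower (2.26%), 3.02% in all. The CD40L-KO mice of day 75 also had Eif2s3y above Xist and those of day 32 did not, so both strains share that step. Cd40lg, the deleted gene, lay between 3.14 and 3.38 in the 6 exposed C57BL/6 mice and between 3.12 and 3.41 in the 6 exposed CD40L-KO mice, near the floor of 3, and does not check the strain labels. Nnt, an autosomal gene, lay between 6.98 and 7.26 in these C57BL/6 mice and between 5.57 and 6.16 in these CD40L-KO mice. The strains thus differed in Nnt at both days. In the 27 unexposed C57BL/6 mice Nnt ran from 5.45 to 7.56, with a median of 6.09. Whether the strains, or those 27 mice, differ in background beyond the deleted gene was not tested.

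In Saa3 the strains moved in opposite directions. It fell by 4.77 in C57BL/6 mice, while in CD40L-KO mice it was at 6.43, 7.42 and 8.02 at day 75 and at 4.86, 4.84 and 5.34 at day 32, a rise by 2.28 (SE 0.48, adjusted p = 0.0161). The difference of the changes was -7.05 (SE 0.68, adjusted p = 6.97e-05). Ccl8 likewise rose in CD40L-KO mice, by 2.32 (SE 0.47, adjusted p = 0.0148), to 6.91, 7.37 and 7.63 at day 75, against 5.80, 4.00 and 5.15 at day 32, with a difference of the changes of -4.72 (SE 0.67, adjusted p = 0.00141). At day 75 the Ccl8 levels of the second C57BL/6 mouse (7.46) and of the CD40L-KO mice were close to each other.

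Of the genes higher at day 34, 116 of 423 were called lower in the difference of the changes and 0 higher, with a median of -0.73; their median change in CD40L-KO mice was 0.06. The interferon-gamma list had 12 of 27 called lower with a median of -1.11, the MHC class II list 7 of 13 with -1.11, and the cell cycle list 15 of 51 with -0.88. The immunoglobulin genes, the list put together after their values were seen, went the other way, with 10 of 26 called higher, 0 lower and a median of 1.62. On the wider immunoglobulin and plasma cell list 3 of 20 genes were called higher and 1 lower, with a median of 0.17. Igkv6-14 was at 5.72, 6.56 and 6.71 in CD40L-KO mice of day 75 and at 6.16, 6.57 and 5.96 in those of day 32, and the difference of the changes was 3.73 (SE 0.51, adjusted p = 0.00134). Igha was at 6.18, 6.35 and 6.04 in CD40L-KO mice of day 75 and 6.24, 4.92 and 5.64 in those of day 32; its difference of the changes, 1.05 (SE 0.44), was not called (adjusted p = 0.249). Without the second exposed C57BL/6 mouse of day 32 the count of called genes was 643 in place of 241, and without the third C57BL/6 mouse of day 75 it was 143.

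**Figure D5:**
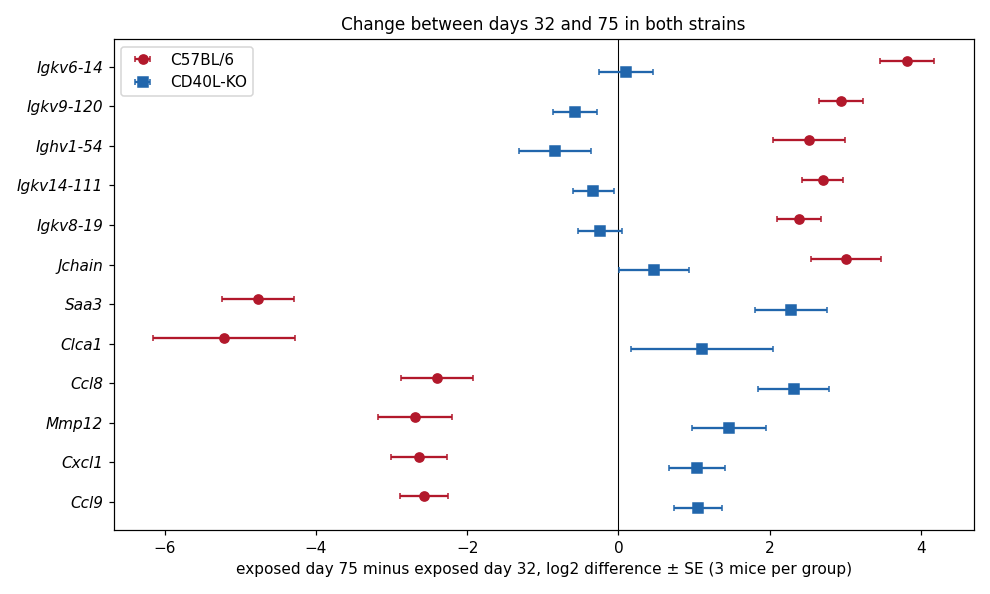
Log2 difference between exposed mice of day 75 and day 32 (horizontal axis) in C57BL/6 mice (red circles) and CD40L-KO mice (blue squares) for 12 genes above the median level, with bars of 1 SE and 3 mice per group and day. The antibody genes and Jchain lie between 2.39 and 3.82 in C57BL/6 mice and between -0.84 and 0.47 in CD40L-KO mice, and the 6 inflammatory genes lie below 0 in C57BL/6 mice and above 0 in CD40L-KO mice.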

How the data were processed

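Lung RNA was turned into biotin-labelled cRNA and read on Affymetrix arrays, according to the labels. Per the labels and the values, the deposited values are linear intensities, 1 for each of 12487 probe sets on each of 95 arrays. The authors had scaled every array to the same trimmed mean, as the values show; how probes were summarised was not given in the sources used here. Array medians ran from 35.5 to 46.3, the 6 arrays compared correlated at 0.935 to 0.986, and 0 pairs of arrays were identical. The number of arrays limits the precision.

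Levels were taken as log2(intensity + 8). The platform annotation gave 10855 probe sets 1 symbol, 396 several and 1236 none, and each of 8252 genes was read from its brightest probe set. Groups came from the labels. Days 75 and 32 were fitted on 19 arrays in 7 groups, and day 34 on its own experiment. The fits used lmFit and eBayes (limma 3.58.1, R 4.3.3), with Benjamini-Hochberg adjustment over all genes and a threshold of 0.05. Python (3.11.15) with matplotlib (3.10.9), numpy (2.4.6) and pandas (2.3.3) served for tables, motif searches and figures. The fit was tested on simulated data.

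The groups compared, the gene lists and the rule for naming genes were chosen with earlier results of these data known. The rule kept to autosomal genes. For day 75 against day 32 it took the 15 genes that rose most and the 15 that fell most, if called, above the median level and with groups that did not overlap, and 8 and 8 likewise against unexposed mice. For the strain difference it took 6 and 6 above the median level over the 12 arrays, without the overlap condition. From every list it took at most 4 called members, or the 2 of smallest p where none was called, and it always allowed a set of key genes. Ctsl, Cd34, Xbp1, Ell2, Pim1, Creld2, B2m, Nudcd2, Rbm14 and Tuba1c fall outside it and were named after their values were seen.

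Alternatives were a smaller and a larger offset (2 and 32), a filter on dim genes, quantile normalization, centring on the median, a fit of all arrays together, averaging a gene's probe sets, adjustment over autosomal genes, leaving out arrays with squamous transcripts, the Gapdh ratio as a covariate, the replicate number as a block, only the 3 C57BL/6 groups, and leaving out each array. Deviations of same-numbered mice of days 75 and 32 correlated at 0.0331, 0.065 and 0.0494, so the numbers were not taken to pair the mice.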

Additional observations from a re-analysis of the deposited data

Results flagged for a closer look

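In 12 genes the change between days 32 and 75 differed between C57BL/6 and CD40L-KO mice by the test of that difference (limma, adjusted over all genes, 3 mice per group). They are the 6 largest differences in each direction among called genes whose mean level over the 12 arrays was above that of the median gene. Changes are day 75 minus day 32 in exposed mice, and differences are the C57BL/6 change minus the CD40L-KO change. In both strains the day 75 mice had Eif2s3y above Xist and the day 32 mice did not.

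The 6 positive differences at that level were in antibody genes or Jchain. They were 3.73 for Igkv6-14 (adjusted p = 0.00134), 3.52 for Igkv9-120 (adjusted p = 0.000417), 3.37 for Ighv1-54 (adjusted p = 0.0119), 3.03 for Igkv14-111 (adjusted p = 0.000561), 2.64 for Igkv8-19 (adjusted p = 0.00215) and 2.54 for Jchain (adjusted p = 0.0433). Among dimmer genes, Adck1 with 2.93 (adjusted p = 0.00209) and Igkv10-96 with 2.65 (adjusted p = 0.00196) were larger than Igkv8-19 and Jchain. Jchain was at 9.70, 9.13 and 9.72 in C57BL/6 mice of day 75, and at 5.55, 5.85 and 5.59 in CD40L-KO mice of day 75, against 5.88, 5.45 and 4.26 in CD40L-KO mice of day 32.

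The 6 negative differences at that level were in inflammatory genes. They were -7.05 for Saa3 (adjusted p = 6.97e-05), -6.33 for Clca1 (adjusted p = 0.0154), -4.72 for Ccl8 (adjusted p = 0.00141), -4.15 for Mmp12 (adjusted p = 0.00469), -3.68 for Cxcl1 (adjusted p = 0.00141) and -3.62 for Ccl9 (adjusted p = 0.000561). Among dimmer genes, Cxcl9 with -5.16 (adjusted p = 6.37e-05) and Ccl2 with -4.65 (adjusted p = 0.00148) were larger than Mmp12, Cxcl1 and Ccl9. Clca1 was at 6.19, 6.54 and 7.63 in CD40L-KO mice of day 75 and at 7.68, 4.66 and 4.68 in those of day 32, so the CD40L-KO groups overlapped, and its change there of 1.11 was not called (adjusted p = 0.533). In CD40L-KO mice the change of Mmp12 was 1.46, that of Cxcl1 was 1.04 and that of Ccl9 was 1.05, and none of the 3 was called (adjusted p 0.107, 0.126 and 0.0756).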

How the results depend on the processing

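Counts below are called autosomal genes, and causes were not tested. For day 75 against day 32 (1432), the count was 289 with the Gapdh ratio as a covariate and 838 with only the 3 C57BL/6 groups, and it ran from 779 to 1581 when 1 array was left out. For day 75 against unexposed mice (115), it was 196 with an offset of 32, 178 without dim genes, 60 with all 95 arrays in 1 fit, 7 with the Gapdh ratio, 52 with the replicate block and 14 with the 3 groups, and it ran from 20 to 121 without 1 array. For exposed against unexposed mice of day 32 (548), it was 124 with the 3 groups and 139 to 1053 without 1 array; for the strain difference (241), 380 with all arrays and 143 to 643 without 1 array. For day 34 (662), it was 1244 with all arrays, 181 with the Gapdh ratio and 438 to 1280 without 1 array. The replicate block gave 1331, 390, 207 and 471 genes in the other 4 comparisons. Numbers were not shown to pair the mice.

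Over 135 named genes, 2209 of 2405 values under an alternative kept direction and side of the threshold, 175 lost the call, 17 gained one and 4 changed sign. The sign changes were Kit at -0.01 and Nnt at -0.05 with the Gapdh ratio, and Scgb1a1 at 0.21 with quantile normalization and 0.00 without the second exposed day 32 mouse (-0.20 at the lowest); none of these 3 was named as changed. Of 114 named genes called between days 75 and 32, 56 lost the call with the Gapdh ratio, and 3 to 18 without 1 array. Among those lost with the ratio, the difference stayed at 1.63 for Igha and went from 2.10 to 2.11 for Hspa1b. It went from -2.40 to -1.51 for Ccl8. With other controls for day 34, the list medians against unexposed mice turned to 0.08 for the higher genes and -0.12 for the lower ones.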

Other observations

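Some members of lists given above only as counts, or not given, follow. Gp9, part of the platelet receptor for von Willebrand factor, was higher at day 75 than at day 32 of exposure by 1.81 (adjusted p = 0.00436; 0.0525 with the Gapdh ratio as a covariate), and Gp5, another platelet glycoprotein of that receptor complex, was lower, at -0.84 (adjusted p = 0.00581; 0.0726 with that covariate). Gp5 was dim, with means of 3.89 at day 75 and 4.73 at day 32. A second, also dim probe set of Gp5 went the other way, by 0.60 (4.11 against 3.52). The Gp5 call was lost when a gene's probe sets were averaged. On the list of lymphoid-tissue chemokines and organisers 1 of 17 genes was lower, 0 were higher and the median was -0.28. Over all genes 8.97% were higher and 8.99% lower, so these counts are a description only. Against unexposed mice of day 32 none of the 17 was called, beside 1.44% of all genes, and the median was 0.27. Of 20 smooth muscle and pericyte genes 3 were higher and 0 lower, with a median of 0.32.

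In the exposed CD40L-KO mice, 165 genes were higher and 161 lower at day 75 than at day 32, and the median change of the genes lower at day 34 in C57BL/6 mice was 0.02.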
